A study of Homo sapiens with 6 samples.

Results

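The 10 genes described here are feedback inhibitors and transcription factors of the RAS-ERK pathway, and their transcripts were compared between control and MORC2-depleted SW480 cells. They are the dual-specificity phosphatases DUSP4, DUSP5 and DUSP6, the Sprouty genes SPRY1, SPRY2 and SPRY4, the Sprouty-related genes SPRED1 and SPRED2, and the ETS factors ETV4 and ETV5. Members were listed by gene symbol, with earlier results of these data known, and make up 10 of the 56303 genes in the deposited tables. All 10 had enough reads to be tested. SW480 is a human colorectal adenocarcinoma line grown in RPMI 1640 with fetal bovine serum. Both groups were infected with lentivirus. The control group (shCtrl, genotype WT) carried a nonsilencing hairpin and the other group (shMORC2, genotype MORC2 knockdown) a hairpin against MORC2, a nuclear ATPase that acts in gene silencing. Per the study's methods, both were stable clonal lines selected with puromycin. With 1 hairpin and 1 control line, an effect of MORC2 loss and a difference between lines cannot be told apart. Each group had 3 libraries of polyadenylated RNA, numbered 1 to 3, and the labels explain neither the numbers nor whether the cultures were separate, so the p-values measure the spread between libraries, which may be technical.

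Growth factor receptors pass their signal through RAS to the kinases RAF, MEK and ERK, and active ERK changes transcription in the nucleus. Many of the genes that ERK switches on restrain it in turn: DUSP proteins remove the activating phosphates from ERK, and Sprouty and SPRED proteins act further up, near RAS and RAF. ETV4 and ETV5 are held down by the repressor CIC until ERK signalling relieves it. Transcripts of these genes are widely used as a readout of pathway output.

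Promoter sequence is shown for SPRY2, whose decrease was called under every alternative run, and for SPRY1, a gene of the same family that was called under none. Both runs are the 250 bases before the RefSeq start of the canonical transcript (GRCh38.p14), written 5′ to 3′ on the strand of the gene. The SPRY2 window is chr13:80341127-80341376 on the minus strand and the SPRY1 window chr4:123396545-123396794 on the plus strand. Neither overlaps an exon of its gene in GENCODE v44 or in the deposited tables. GC content is 70.4% in the SPRY2 window and 45.6% in the SPRY1 window. Capitals mark the ETS core GGAA, or TTCC where the core lies on the other strand.
SPRY2: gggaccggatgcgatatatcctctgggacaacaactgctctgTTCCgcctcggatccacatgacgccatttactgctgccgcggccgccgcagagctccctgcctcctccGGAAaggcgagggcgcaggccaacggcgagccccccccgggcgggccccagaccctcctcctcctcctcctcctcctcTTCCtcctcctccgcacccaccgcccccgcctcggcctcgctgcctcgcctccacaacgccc
SPRY1: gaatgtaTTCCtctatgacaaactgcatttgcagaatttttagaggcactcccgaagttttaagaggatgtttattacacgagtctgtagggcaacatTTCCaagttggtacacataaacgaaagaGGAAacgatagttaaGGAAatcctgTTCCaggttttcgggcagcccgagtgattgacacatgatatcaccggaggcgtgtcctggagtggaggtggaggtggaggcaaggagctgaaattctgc
The SPRY2 window held 3 cores and the SPRY1 window 5, where 92.7% of all 34943 RefSeq promoter windows held at least 1 and the median was 3. A wider search took in 10 RefSeq windows of 6 members: DUSP6, SPRY1, SPRY2, SPRY4, SPRED1 and SPRED2. Windows of DUSP4, DUSP5, ETV4 and ETV5 were not searched, so nothing is known here of their sites. The letters searched for, on both strands, were the CIC octamers TGAATGAA and TGAATGGA and the ETS site CCGGAAGT. The AP-1 site TGANTCA and the CRE TGACGTCA were searched for as well. None of the 10 windows held any of these letters. They occurred in 1.40%, 0.818%, 3.39%, 6.59% and 1.63% of all windows, in that order.

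MORC2 itself stood at 46.1, 46.4 and 48.8 CPM in the shCtrl libraries and at 35, 29.3 and 27.2 CPM in the shMORC2 libraries. CPM here are counts divided by the scaled library size in units of 1000000 reads. The groups did not overlap, and the fitted log2 fold change of MORC2 was -0.63 (SE 0.10, adjusted p 0.000216 in edgeR's quasi-likelihood test). An antisense gene shares 25.8% of its exon bases. Library totals ran from 42092664 to 43434425 counts. Of 10 epithelial and colorectal markers, 9 were tested, of which 1 was called higher and 2 lower (33.3%, against 39.5% of all genes tested). The intestinal factor CDX2 had a log2 fold change of 0.47 (edgeR adjusted p 0.0158), with groups that overlapped, and was called in 10 of 15 alternatives. Its call was lost without shCtrl replicate 2, shCtrl replicate 3 or shMORC2 replicate 3 (edgeR adjusted p 0.0576 to 0.0968). Both limma fits lost it as well (limma adjusted p 0.0547 and 0.0542). The lower ones were CEACAM5, an adhesion protein (-1.08, edgeR adjusted p 0.00265), and LGR5, a stem cell receptor (-1.10, edgeR adjusted p 0.00647). EPCAM, an epithelial surface protein, averaged 478 ± 3.47 CPM in shCtrl against 515 ± 21.4 CPM in shMORC2 (SD, n = 3 each) and was not called (edgeR adjusted p 0.251). CDX1, also an intestinal factor, averaged 0.0543 and 0.016 CPM. Of 10 markers of blood, endothelium, fibroblasts and red cells, 6 were tested and 3 were called (50%, against 39.5% of all genes tested). All 3 were higher in shMORC2: CD68, VWF and ACTA2. The call of VWF was lost when any 1 of shCtrl replicates 1 and 2 and shMORC2 replicates 2 and 3 was left out (edgeR adjusted p 0.0548 to 0.1). The summed level of the 10 markers ran from 60.0 to 68.2 CPM in shCtrl and from 87.6 to 138 CPM in shMORC2, of which CD68, a lysosomal protein, took 29.6 to 38.8 and 49.5 to 101 CPM. The leukocyte marker PTPRC was at 0 in shCtrl and averaged 0.079 CPM in shMORC2, and the haemoglobin gene HBB was at 0 in all 6 libraries. The part of these markers in the results below was not tested.

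Of the 10 members, 2 were called at an adjusted p under 0.05, and both were lower in shMORC2: DUSP5 and SPRY2. Over all 21005 genes tested, 39.5% were called and 19.6% were called lower. The members' share of 20% was thus below the share of all genes in either direction and about equal to that of genes called lower. With the replicate number as a block, 4 members were called, all lower (DUSP4, DUSP5, SPRY2 and SPRY4), where 49.0% of all genes were called and 24.5% called lower. No label pairs the libraries, and the pairing by number, here and below, was taken from the values of these same libraries. No member was called higher in either fit. The fitted change was below 0 for 8 members and above 0 for 2, with a median of -0.11 on the log2 scale against -0.006 over all genes. Only SPRY2 had groups that did not overlap, 1 member of 10, where 50.2% of all genes had such groups. In bulk RNA, a lower level in each cell and fewer cells with a high level cannot be told apart.

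**Figure D1:**
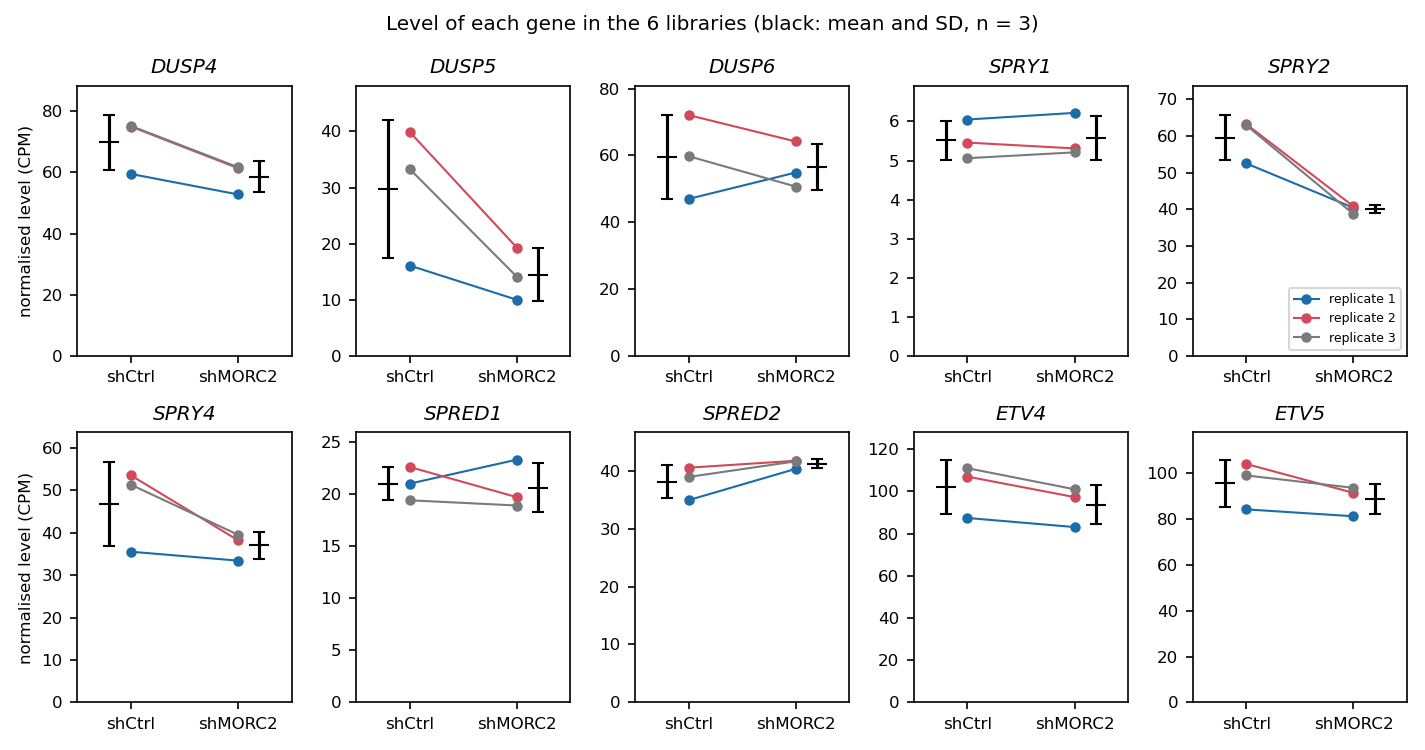
Normalised level of each of the 10 genes in CPM (vertical axis, from 0) in the 3 shCtrl and 3 shMORC2 libraries, with lines joining libraries of the same replicate number and black bars giving the mean and SD of 3 libraries. The 3 shMORC2 values of SPRY2 (38.7 to 40.8 CPM) lie below all shCtrl values, and replicate 1 is the lowest shCtrl library in 8 of the 10 genes.

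DUSP5, a nuclear phosphatase specific for ERK, showed the largest change of the 10 genes (chromosome 10, 110497838 to 110511544, plus strand, GRCh38). It stood at 16.1, 39.9 and 33.3 CPM in shCtrl replicates 1, 2 and 3 and at 10.0, 19.3 and 14.1 CPM in shMORC2 replicates 1, 2 and 3. Each shMORC2 library was below the shCtrl library of the same number, but shMORC2 replicate 2 lay above shCtrl replicate 1, so the groups overlapped. The mean was 29.8 ± 12.3 CPM in shCtrl against 14.5 ± 4.66 CPM in shMORC2 (SD, n = 3 each), and the fitted level in shMORC2 was 48.6% of that in shCtrl. This log2 fold change of -1.04 (SE 0.27) passed the test with an adjusted p of 0.0081 in edgeR. Among all genes tested, 7.98% had a change of larger size. The call was kept in 13 of 15 alternatives and lost without shCtrl replicate 2 (log2 fold change -0.77, adjusted p 0.0559) and under DESeq2 (adjusted p 0.0597).

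DUSP4, a nuclear phosphatase that acts on ERK and other MAP kinases, was less changed (chromosome 8, 29333064 to 29350668, minus strand). Its level was 59.5, 75 and 75.2 CPM in shCtrl replicates 1, 2 and 3 and 52.8, 61.4 and 61.7 CPM in the shMORC2 libraries in the same order. Within each number the shMORC2 library was lower, with log2 ratios of -0.17, -0.29 and -0.29, while shMORC2 replicates 2 and 3 lay above shCtrl replicate 1. The fitted log2 fold change was -0.25 (SE 0.10) and was not called on the groups alone (edgeR adjusted p 0.0597). It was called with the replicate number as a block (adjusted p 0.00135, SE 0.06). Leaving out shCtrl replicate 1, the low control library, also gave a call (log2 fold change -0.36, adjusted p 0.00549). Leaving out any other single library gave none (edgeR adjusted p 0.0916 to 0.212). In all, DUSP4 was called in 5 of 15 alternatives.

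DUSP6, a cytoplasmic phosphatase specific for ERK, was not called (chromosome 12, 89347232 to 89353271, minus strand). It stood at 47.0, 72.1 and 59.8 CPM in shCtrl and at 54.9, 64.2 and 50.7 CPM in shMORC2. All shMORC2 values lay within the range of the shCtrl libraries, and the replicate 1 pair went up while the other pairs went down. The log2 fold change was -0.08 (edgeR adjusted p 0.681, SE 0.13). It ran from -0.22 to 0.08 when single libraries were left out, with the upper end without shCtrl replicate 2.

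The reads of DUSP6 overlap those of an antisense gene. This long noncoding RNA gene (ENSG00000274021, listed by its clone name in the deposited tables), on the plus strand, shares 1875 exon bases with DUSP6, which are 40.5% of the exon bases of DUSP6 and 83.1% of its own. It had 1385, 2085 and 1640 counts in shCtrl and 1607, 1799 and 1452 in shMORC2. Those counts were 0.660 to 0.684 times the DUSP6 counts of the same library throughout. The strand setting of the counting is not given in the sources used here, and without it reads of the gene and of its antisense partner cannot be told apart. ETV4 shares 1.89% of its exon bases with DHX8 on the other strand and ETV5 2.83% with DGKG on the same strand. The other 7 members share none.

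**Figure D2:**
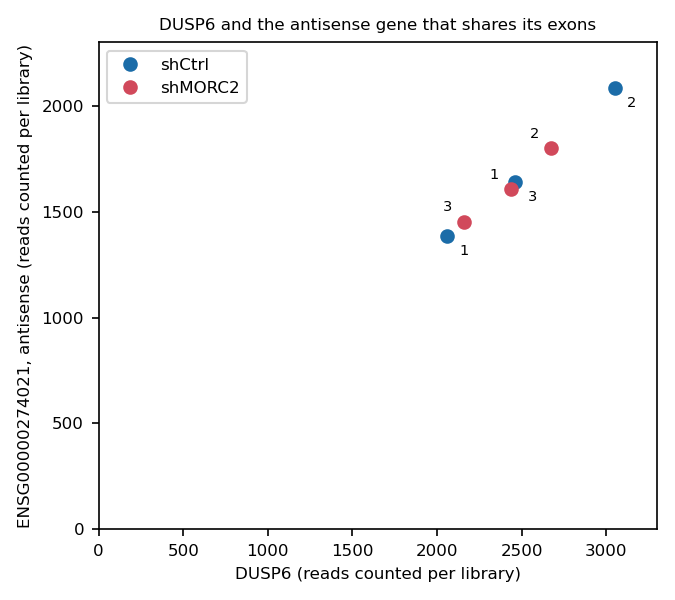
Reads counted per library for DUSP6 (horizontal axis) and for the antisense gene ENSG00000274021 (vertical axis), both from 0, with the replicate number beside each point. The 6 points lie near 1 line through the origin, at 0.660 to 0.684 antisense reads for each DUSP6 read, in both groups.

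SPRY2, a Sprouty protein that restrains receptor signalling to RAS, was called lower (chromosome 13, 80335976 to 80340951, minus strand). Its level was 52.5, 63.2 and 62.9 CPM in shCtrl and 40.4, 40.8 and 38.7 CPM in shMORC2. All 3 shMORC2 libraries lay below the lowest shCtrl library and close to each other, with a coefficient of variation of 2.86% against 10.2% in shCtrl. The mean fell from 59.5 ± 6.09 to 40.0 ± 1.14 CPM (SD, n = 3 each), to a fitted 67.1% of the control. The log2 fold change of -0.57 (SE 0.09) had an adjusted p of 0.000204 in edgeR. This call was kept in 15 of 15 alternatives, with adjusted p-values from 1.23e-08 to 0.00287 and log2 fold changes from -0.66 to -0.53. A larger change was found for 24.8% of all genes.

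SPRY4, a further Sprouty gene, was at 35.5, 53.5 and 51.3 CPM in shCtrl and at 33.4, 38.2 and 39.5 CPM in shMORC2 (chromosome 5, 142310427 to 142326455, minus strand). The replicate 1 pair differed least, with a log2 ratio of -0.09 against -0.49 and -0.38 in the pairs 2 and 3. Its log2 fold change was -0.34 (edgeR adjusted p 0.055, SE 0.13). With the replicate block it was called (log2 fold change -0.32, adjusted p 0.000528), as it was without shCtrl replicate 1 (-0.50, adjusted p 0.000561) and in 6 of 15 alternatives in all.

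SPRY1, also a Sprouty gene, had the lowest level per length of the 10 and showed no called difference (chromosome 4, 123396795 to 123403760, plus strand). It stood at 6.05, 5.46 and 5.06 CPM in shCtrl and at 6.22, 5.31 and 5.21 CPM in shMORC2, from 208 to 276 counts in a library. The log2 fold change was 0.02 (edgeR adjusted p 0.938, SE 0.13), and its sign turned when shCtrl replicate 3 (-0.04) or shMORC2 replicate 1 (-0.07) was left out.

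SPRED1 and SPRED2 bring the RAS inactivator neurofibromin to the membrane, and neither was called. SPRED1 (chromosome 15, 38252326 to 38357249, plus strand) was at 21.0, 22.6 and 19.4 CPM in shCtrl and at 23.3, 19.7 and 18.9 CPM in shMORC2. Its highest and its lowest value were both in shMORC2, and the log2 fold change was -0.03 (edgeR adjusted p 0.845, SE 0.10). SPRED2 (chromosome 2, 65310851 to 65432637, minus strand) was at 34.9, 40.5 and 38.9 CPM in shCtrl and at 40.3, 41.7 and 41.6 CPM in shMORC2. It was the 1 member that was higher in all 3 pairs, with a log2 fold change of 0.11 (edgeR adjusted p 0.29, SE 0.08). The groups overlapped by a narrow margin, shCtrl replicate 2 lying above shMORC2 replicate 1, and the log2 fold change was 0.05 without shCtrl replicate 1 and 0.16 without shCtrl replicate 2.

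ETV4 and ETV5, activators of the PEA3 group of ETS factors, had near-equal fitted changes, and neither was called. ETV4 (chromosome 17, 43527844 to 43579620, minus strand) was at 87.4, 107 and 111 CPM in shCtrl and at 83.1, 97.3 and 101 CPM in shMORC2, with a log2 fold change of -0.12 (edgeR adjusted p 0.377, SE 0.10). ETV5 (chromosome 3, 186046308 to 186110318, minus strand) was at 84.2, 104 and 99.0 CPM in shCtrl and at 81.2, 91.4 and 93.6 CPM in shMORC2, with a log2 fold change of -0.11 (edgeR adjusted p 0.374, SE 0.09). Both were lower within each of the 3 pairs. With the replicate block the adjusted p was 0.106 for ETV4 and 0.152 for ETV5, and neither was called in any of the 15 alternatives. Leaving out single libraries moved the log2 fold change of ETV4 between -0.22 (without shCtrl replicate 1) and -0.04 (without shMORC2 replicate 1) and that of ETV5 between -0.19 (without shCtrl replicate 1) and -0.05 (without shCtrl replicate 2 or shMORC2 replicate 1).

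**Figure D3:**
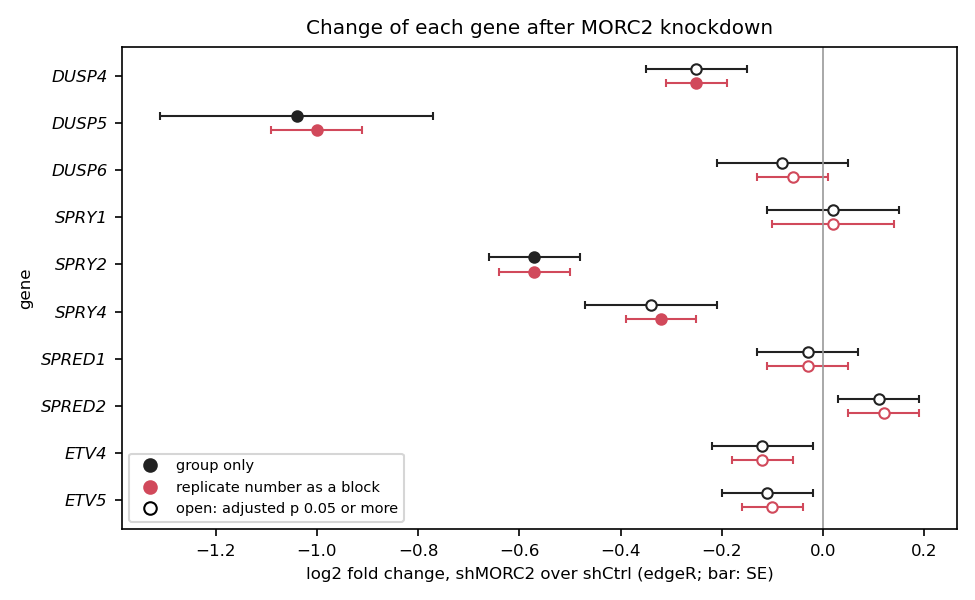
Fitted log2 fold change of each gene, shMORC2 over shCtrl (horizontal axis), with bars of 1 SE, from the fit on groups alone (black) and from that with a replicate block (red), filled where the adjusted p is under 0.05. The points of DUSP5 (-1.04) and SPRY2 (-0.57) are filled in both fits, and those of DUSP4 and SPRY4 only with the block.

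A spread between control libraries ran through the members. shCtrl replicate 1 was the lowest shCtrl library for 8 of the 10 genes, the exceptions being SPRY1 and SPRED1, where 36.9% of all genes tested had their lowest control there. shMORC2 replicate 1 was the lowest of its group for 6 members, where the share over all genes was 38.9%. The coefficient of variation over the shCtrl libraries was 41.2% for DUSP5, 21.1% for DUSP6 and 21.0% for SPRY4, and 7.56% to 12.9% for the other members. For DUSP5 the log2 ratio to the shCtrl mean was -0.89 in shCtrl replicate 1 against 0.42 and 0.16 in replicates 2 and 3. Without both replicate 1 libraries, an alternative chosen after seeing the data, the same 4 genes were called as with the block, with log2 fold changes of -1.13 for DUSP5, -0.66 for SPRY2, -0.43 for SPRY4 and -0.29 for DUSP4. That fit called 43.8% of the genes it tested. Of the 10 other ERK-induced genes, 8 also had their lowest control there, CCND1 and HMGA2 being the exceptions. So did 6 of the 9 epithelial and colorectal markers tested. EGR1, an immediate early transcription factor, had log2 ratios to the shCtrl mean of -0.72, 0.54 and -0.09 in shCtrl replicates 1, 2 and 3. Those of FOSL1, an AP-1 subunit, were -0.61, 0.34 and 0.11. Neither was called on the groups alone (edgeR adjusted p 0.279 for EGR1 and 0.2 for FOSL1). FOSL1 was called with the replicate block (log2 fold change -0.28, adjusted p 0.000656), and both were called lower without shCtrl replicate 1 (-0.56 for EGR1 and -0.55 for FOSL1). Without shCtrl replicate 2 the log2 fold change was 0.07 for EGR1 and -0.11 for FOSL1. These 2 genes were chosen after their values were seen.

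**Figure D4:**
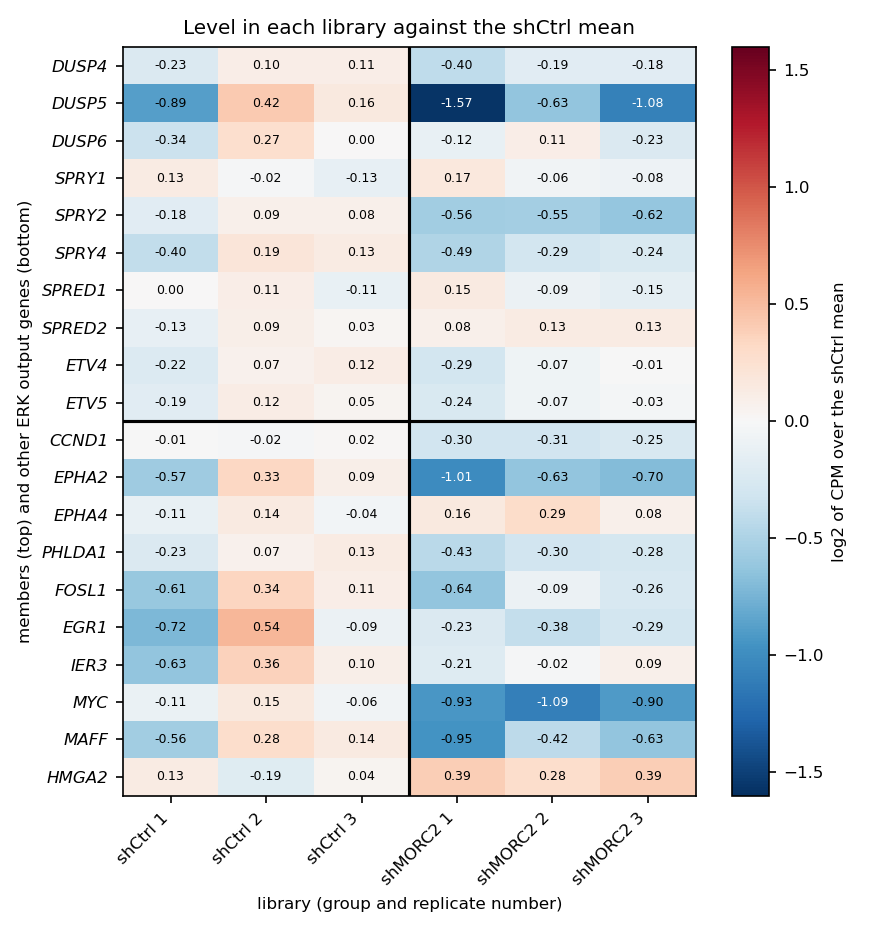
Log2 of the CPM in each library over the shCtrl mean (colour and printed number) for the 10 members, above the black line, and 10 other genes that ERK signalling induces, below it, in the 3 shCtrl and 3 shMORC2 libraries (columns). shCtrl replicate 1 is blue for most genes, down to -0.89 for DUSP5, and MYC is low in all 3 shMORC2 libraries (-0.93, -1.09 and -0.90).

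Levels were compared between genes per length, as RPKM, which is CPM without the scaling step per 1000 bases of exon. In shCtrl the order from high to low was ETV4 (28.2 ± 2.94 RPKM, SD, n = 3), SPRY2 (19.6 ± 1.67), ETV5 (16.5 ± 1.54), DUSP6 (12.9 ± 2.63), DUSP5 (11.4 ± 4.60), DUSP4 (9.64 ± 1.08), SPRY4 (7.88 ± 1.55), SPRED2 (7.40 ± 0.473), SPRED1 (2.55 ± 0.233) and SPRY1 (1.40 ± 0.159). From SPRY2 down to SPRED2 the ranges of neighbouring genes overlapped. ETV4 lay above the rest, and SPRED1 and SPRY1 lay apart at the foot. In shMORC2 the ranges of these pairs of neighbours did not overlap, and some had changed places. SPRY2 ran from 12.6 to 13.6 RPKM there, below ETV5 at 14.3 to 15.9, and DUSP5 from 3.92 to 7.25 RPKM, below DUSP4 at 7.43 to 8.40. SPRY2 there overlapped with DUSP6, at 10.8 to 13.6 RPKM. The DUSP6 level may hold reads of its antisense gene, here and in the ratios below.

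Ratios between related genes within a library ask whether they changed by different amounts, and do not depend on how a library was scaled. DUSP6 was 1.64, 1.02 and 1.01 times DUSP5 in the shCtrl libraries and 3.09, 1.87 and 2.03 times in the shMORC2 libraries, in RPKM. The groups did not overlap, and the mean log2 ratio was higher in shMORC2 by 0.93 (exact two-sided permutation test, p = 0.1, adjusted p 0.28 over 7 ratios). SPRY1 was 0.0883, 0.0663 and 0.0616 times SPRY2 in shCtrl and 0.118, 0.0998 and 0.103 times in shMORC2, also without overlap (log2 difference 0.59, exact permutation p = 0.1, adjusted p 0.28). With 3 libraries against 3, no p below 0.1 can be reached. The other 5 ratios overlapped between the groups. Their log2 differences were -0.74 for DUSP5/DUSP4, 0.25 for SPRY4/SPRY2, 0.19 for DUSP6/DUSP4, 0.15 for SPRED2/SPRED1 and 0.01 for ETV5/ETV4, with exact permutation p-values from 0.2 to 0.8. Within pairs of equal replicate number, 4 of these 5 ratios moved one way in all 3 pairs, ETV5/ETV4 being the exception, as did both ratios without overlap. An exact two-sided sign-flip test over the pairs, added after seeing the data, gave p = 0.25 for these 6 ratios, the smallest that 3 pairs allow, and 0.75 for ETV5/ETV4. The ratio of ETV5 to ETV4 was 0.585 ± 0.0277 in shCtrl and 0.589 ± 0.0157 in shMORC2 (SD, n = 3 each).

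The wider pathway was read from 8 lists by role, which were chosen with earlier results of these data known. Of their 87 genes, 83 were tested and 40 were called, 13 higher and 27 lower, or 48.2% against 39.5% of all genes. With the replicate block 53 were called, where 49.0% of all genes were. Among 10 other genes induced by ERK, 5 fell and 1 rose (60% called), with a median log2 fold change of -0.31. MYC, a growth-promoting transcription factor, fell by 0.97 on the log2 scale, from 417 ± 40.7 to 213 ± 14.7 CPM (edgeR adjusted p 3.47e-06, SE 0.09), and EPHA2, an ephrin receptor, from 211 ± 63.3 to 124 ± 16.4 CPM (log2 fold change -0.77, edgeR adjusted p 0.00332). The cyclin CCND1 fell as well (-0.29, edgeR adjusted p 0.0047). The call of PHLDA1 (-0.34, edgeR adjusted p 0.0131), a pleckstrin-homology protein, was lost without shCtrl replicate 2 (0.0543) or shCtrl replicate 3 (0.0692). EPHA4, also an ephrin receptor, was not called (0.18, edgeR adjusted p 0.159).

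Among 7 other MAP kinase phosphatases, 5 were called, all lower (71.4%, where 19.6% of all genes were called lower), with a median log2 fold change of -0.66. DUSP10, among these 5, had few reads, at 14 to 46 counts in a library, and was called in 6 of 12 alternatives. Groups did not overlap for 3 of the 7 genes, where 50.2% of all genes had such groups. DUSP1, which acts on p38 and JNK as well as ERK, was at 10.5 ± 4.94 CPM in shCtrl against 5.11 ± 0.846 CPM in shMORC2 (log2 fold change -1.04, edgeR adjusted p 0.00644). Its groups overlapped, with shMORC2 replicate 3 at 6.08 CPM and shCtrl replicate 1 at 6.05 CPM. Without shCtrl replicate 2 its log2 fold change was -0.62. DUSP8 had a log2 fold change of -0.75 (edgeR adjusted p 0.0247), with groups that overlapped. Its call was lost in each fit that left out 1 library other than shCtrl replicate 1, with adjusted p-values from 0.0503 to 0.114. Of 14 other inhibitors tested, 6 were lower and 2 higher (57.1% called, where 39.5% of all genes were), with a median of -0.25. CBL, a ubiquitin ligase that removes active receptors, had a log2 fold change of -0.69 (edgeR adjusted p 2.67e-05). ERRFI1, an inhibitor of the EGF receptor, had one of -0.51 (edgeR adjusted p 0.0239), with groups that overlapped. Its call was lost in 6 of 15 alternatives: when shCtrl replicate 2 (log2 fold change -0.31, adjusted p 0.144) or either of shMORC2 replicates 1 (0.0588) and 3 (0.0808) was left out, under DESeq2 (0.123) and in both limma fits (0.0598 and 0.0611).

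Of 11 receptor tyrosine kinases, 6 were called lower and 2 higher (72.7%, against 39.5% of all genes), with a median log2 fold change of -0.28. The higher ones, ERBB4 and FGFR2, had few reads, at 29 to 67 and 2 to 40 counts in a library. FGFR2, at 2 to 18 counts in shCtrl and 22 to 40 in shMORC2, passed the read filter through its shMORC2 libraries, which favours genes higher there. EGFR fell from 9.16 ± 3.70 to 4.85 ± 0.424 CPM (log2 fold change -0.92, edgeR adjusted p 0.00733). Its shCtrl replicate 3, at 5.23 CPM, was close to shMORC2 replicate 1 at 5.16 CPM. Without shCtrl replicate 2 the log2 fold change of EGFR was -0.62, with an edgeR adjusted p that rounds to 0.05. FGFR3, a fibroblast growth factor receptor, fell from 19.6 ± 4.83 to 11.2 ± 2.19 CPM (-0.80, edgeR adjusted p 0.00257). Of 12 ligands tested, 5 were higher and 1 lower (50%), and the median was 0.45. The higher ones included FGF20 (2 to 8 counts in a shCtrl library, 39 to 59 in shMORC2) and BTC (6 to 12, 11 to 31). Both passed the read filter through their shMORC2 libraries, which favours genes higher there. FGF9, also called higher, had 21 to 30 counts in shCtrl and 54 to 79 in shMORC2. IGF2, a ligand of the IGF1 receptor, rose from 599.6 ± 149 to 1526 ± 293 CPM (log2 fold change 1.35, edgeR adjusted p 3.62e-05), whereas FGF18 had a log2 fold change of -0.79 (edgeR adjusted p 0.00125).

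In the cascade itself, 2 of 12 genes were called lower and 1 higher (25%, against 39.5% of all genes), with a median of -0.03. The kinase BRAF fell (log2 fold change -0.57, edgeR adjusted p 0.000438). Of 7 adaptors and exchange factors, 1 was called (14.3%), the adaptor SHC1, which rose (0.44, edgeR adjusted p 0.00291), and the median was -0.10. Of 10 nuclear targets and repressors, 2 were lower and 1 higher (30%), with a median of 0.04. The ETS factors ELK4, an activator with SRF, and ERF, a repressor that ERK inactivates, had log2 fold changes of -1.10 (edgeR adjusted p 1.32e-05) and -0.67 (edgeR adjusted p 0.000184). CIC, the repressor of ETV4 and ETV5, was not called (0.13, edgeR adjusted p 0.348). It was called higher in 2 of 15 alternatives, without shMORC2 replicate 1 (0.24, adjusted p 0.0302) and without both replicate 1 libraries (0.20, adjusted p 0.041). Without shMORC2 replicate 3 its log2 fold change was 0.03 (edgeR adjusted p 0.843).

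**Figure D5:**
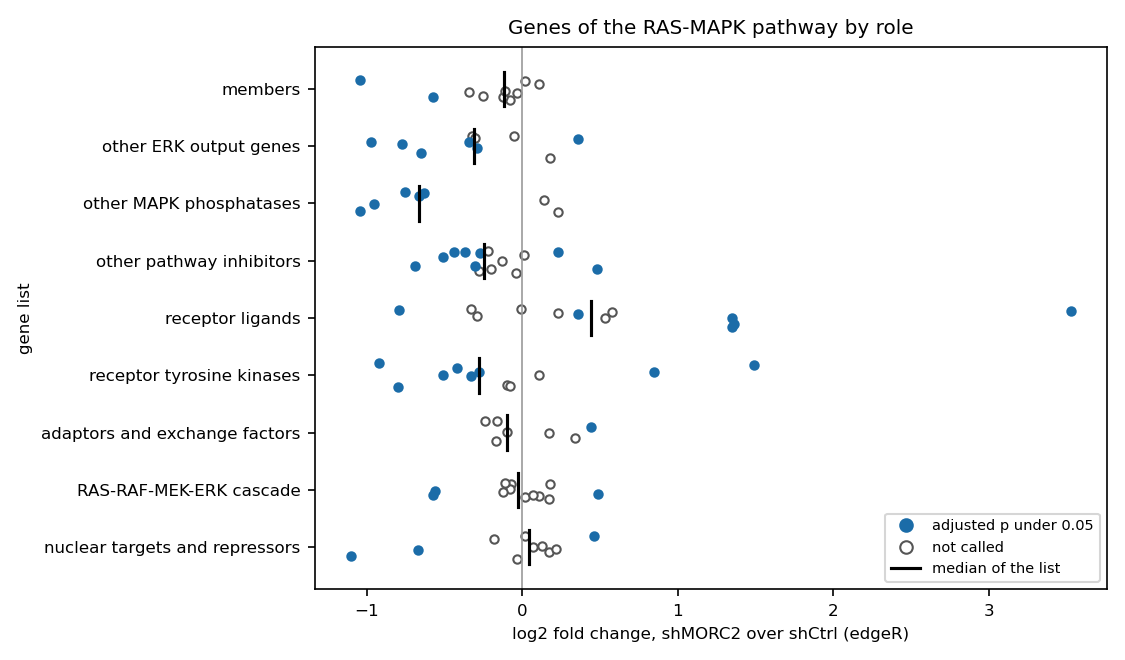
Fitted log2 fold change, shMORC2 over shCtrl (horizontal axis), of the 10 members and of the tested genes of 8 pathway lists (vertical axis), with filled points for an adjusted p under 0.05 and a bar at each list's median. The medians run from -0.66 for the other MAP kinase phosphatases to 0.45 for the ligands, and the members' median is -0.11. Among the ligands called higher, FGF20, BTC and FGF9 had few reads in shCtrl.

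The deposited splicing table listed 1449 events between the groups, and 0 of them lay in the 10 members. Events that the table does not list were not analysed here.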

How the data were processed

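RNA was measured in 6 SW480 libraries, 3 shCtrl and 3 shMORC2, grouped by their labels. Deposited by the authors were a table of raw counts for each gene and an RPKM table, which was checked to equal these counts per 1000 exon bases and 1000000 counts. Both tables had 0 columns of other samples. The submitters' processing notes name Trimmomatic 0.36, STAR 2.5.3a, featureCounts, Subread 1.5.1, edgeR 3.12.1 and GRCh38. The strand setting, the annotation release and whether molecular identifiers were collapsed are not given in the sources used here. The authors also deposited a splicing table, from which only the genes of listed events were read. Its inclusion levels, differences and p-values were not used.

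Counts were fitted over all 21005 genes that passed filterByExpr with edgeR 4.0.16 in R 4.3.3 (TMM scaling, quasi-likelihood test, group as the only term, Benjamini-Hochberg adjustment, called at an adjusted p under 0.05). As SE, the size of the log2 fold change over the root of its F value was taken. Depth ran from 42092664 to 43434425 counts per library, and intervals from counting error alone would understate the spread between libraries, whose chi-square values per degree of freedom were 6.83 to 23.9 within groups. Ratios of related genes were tested in scipy 1.17.1 by exact permutation. Libraries with equal numbers deviated together from their group means (correlations over genes 0.215, 0.111 and 0.102, against -0.156 to 0.053 for unequal numbers). These correlations are not independent, since deviations within a group cancel out. The numbers were taken to pair the libraries, on the values alone, which can lower the p-values of the block fit. Alternatives were DESeq2 1.42.0, 2 other scalings, 2 other filters, the block, limma 3.58.1 on RPKM logged with a pseudocount of 1 or 0.1 (mean RPKM 1 or more), 2 other thresholds, each library left out and, added after seeing the data, both replicate 1 libraries left out.

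The members, lists and tests were chosen with earlier results of these data known. Named are all members, the 2 called genes with the largest change in each list (mean count 100 or more), and BRAF, EGFR, CIC, MYC, CCND1, EPHA2, EPHA4, PHLDA1 and MORC2. Cell type markers, EGR1 and FOSL1 are named besides (chosen after their values were seen). Some genes under this rule are not reported here. The ETS core was searched only after the other motifs gave no match. Promoter sequences are from RefSeq (GRCh38.p14).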

Additional observations from a re-analysis of the deposited data

How the results depend on the processing

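The count of members called was 2. It was 4 (DUSP4 and SPRY4 added) with library size without TMM, with a filter of 1 count in all libraries together, with the replicate block and without both replicate 1 libraries. It ran from 1 (SPRY2 alone, without shCtrl replicate 2) to 4 (without shCtrl replicate 1) when each library was left out. Outside the members the replicate block changed 1 call of a named gene, that of FOSL1 (-0.28). The sign-flip test over pairs could take no ratio below the threshold, since 3 pairs allow no p under 0.25. Of the alternative fits of single members, 130 kept their direction and their side of the threshold, 11 gained a call, 2 lost one and 7 changed sign, all 7 in members not called. When each library was left out, the log2 fold change of DUSP6 ran from -0.22 to 0.08, of SPRED1 from -0.12 to 0.04 and of SPRY1 from -0.07 to 0.08, and the log2 difference of the ratio ETV5/ETV4 from -0.03 to 0.03. The cause was not tested. Other named genes, markers included, kept direction and call in 378 fits, lost a call in 22, gained one in 9 and changed sign in 1 (EGR1, 0.07 without shCtrl replicate 2, in a range of -0.56 to 0.07). Pathway genes called ran from 28 to 53 and all genes called from 6227 to 10287. Depth limits SPRY1 most, with 208 to 276 counts in a library.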
